A study of Mus musculus with 2 samples.

Results

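The genes described here build the red cell membrane: 32 genes for its spectrin-actin skeleton, the proteins that tie the skeleton to the lipid bilayer, the blood group and surface antigens, the channels and transporters, and the raft scaffolds. They were chosen by symbol from what is known of the red cell, not by their level, though with earlier results of these data known. All 32 were matched among 43346 mouse genes. The RNA came from embryonic liver of the C57BL/6J strain at 14 days, from pooled male and female littermates. The group had 2 libraries, named here by their biological replicate numbers 1 and 2, which share the same donor entry. Whether they come from different litters is not stated, so their spread may be partly technical. Paired values below give replicate 1 first and replicate 2 second. The RNA was polyadenylated, depleted of ribosomal RNA, longer than 200 nucleotides and sequenced as stranded read pairs. No treatment, mutant or other age was measured, so no comparison between conditions could be made. The deposited tables held 97174777 expected counts on mouse genes in replicate 1 and 149348514 in replicate 2.

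At this age the liver is the main site of red cell production, and the tissue holds many maturing red cell precursors beside hepatocytes. The membrane of the mature red cell rests on a mesh of spectrin tetramers joined by short actin filaments. Ankyrin links beta spectrin to the anion exchanger band 3, and protein 4.1 links the spectrin-actin junctions to glycophorin C. Precursors assemble this mesh while they still make RNA, and several skeletal genes change their splicing during that time. The 9 red cell markers, which include globin genes, were each at 10 TPM (a transcript level scaled for gene length and library total) or more in both libraries, as were the 7 hepatocyte markers. The red cell list summed to 488532 and 441055 TPM. TPM of all genes share a fixed total, so a smaller globin share leaves a larger one for the rest.

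Nearly every one of the genes was well expressed. Their median level was 53.1 and 63.3 TPM (58.2 ± 7.25, SD, n = 2), against 1.17 and 1.20 TPM for the 21474 protein-coding genes. At 10 TPM or more in both libraries stood 30 of the 32 genes, where 22.9% of protein-coding genes did. The exceptions were Tmod3 and Bcam. All 32 had at least 1000 counts in each library, the fewest being 1490 and 2211 for Bcam. The genes held 0.887% of the counts in replicate 1 and 0.987% in replicate 2. In these bulk samples, fewer red cell precursors and less RNA per precursor cannot be told apart.

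Sequences are shown first for the exons whose use is described further on, because splicing of these exons is where transcript estimates and spliced reads could be compared. They were read from GENCODE M21 transcripts on GRCm38 in the direction of the gene and are written in lower case.
Epb41, coding exon of 63 nucleotides, chr4:131962924-131962986, minus strand: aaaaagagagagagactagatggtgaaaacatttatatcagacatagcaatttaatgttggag
Epb41, coding exon of 42 nucleotides, chr4:131963929-131963970, minus strand: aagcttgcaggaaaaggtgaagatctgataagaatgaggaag
Cd47, coding exon of 63 nucleotides, chr16:49869018-49869080, plus strand: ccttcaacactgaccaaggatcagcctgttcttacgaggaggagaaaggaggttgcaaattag
Dmtn, coding exon of 75 nucleotides, chr14:70617955-70618029, minus strand: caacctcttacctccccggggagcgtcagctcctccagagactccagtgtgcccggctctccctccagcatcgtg
Ank1, coding exon of 24 nucleotides, chr8:23110347-23110370, plus strand: gaactgctcacatatctataatgg

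The anchors that tie the skeleton to the bilayer held the most abundant gene. Slc4a1 (chr11:102348824-102366203), which encodes band 3, the anion exchanger that also binds ankyrin, stood at 451 and 531 TPM (491 ± 56.6, SD, n = 2). It ranked 147 among protein-coding genes by mean TPM. Epb42, which encodes protein 4.2, a catalytically inactive relative of transglutaminases that binds band 3, stood at 129 and 159 TPM. Its level was 0.286 and 0.2999 of that of Slc4a1, so the ratio hardly moved between libraries. Gypc, the gene of the glycophorin that binds protein 4.1, was at 66.7 and 79.5 TPM. Ank1, the gene of red cell ankyrin, was at 58.0 and 70.5 TPM, and Mpp1, the gene of the scaffold protein p55, was at 52.4 and 66.5 TPM. Slc4a1 was thus 7.77 and 7.53 times as high as Ank1 on the TPM scale. Of that Ank1 level, 39.5% and 36.1% lay on short transcripts whose first junction few reads crossed, as described below. All of the 5 anchors had higher TPM in replicate 2.

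Among the skeleton genes, Epb41 stood at 94.7 and 116 TPM (105.2 ± 14.9, SD, n = 2). It encodes protein 4.1, which strengthens the binding of spectrin to actin. Sptb, which encodes the red cell beta spectrin, was lower, at 31.2 and 36.6 TPM. Slc4a1 was 14.5 times as high as Sptb in each library. Of the adducins, which cap actin filaments and recruit spectrin, Add1 was at 93.5 and 111 TPM and Add2 at 53.8 and 60.2 TPM, while Add3 was at 11.5 and 12.5 TPM. Alpha and beta adducin thus stood in the ratio 1.74 and 1.84, and Add1 was 8.15 and 8.90 times as high as Add3. Dmtn, the gene of dematin, an actin-bundling protein, was at 50.3 and 58.2 TPM.

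The length of the short actin filaments is set by tropomyosins, which lie along them, and tropomodulins, which cap their pointed ends. Tpm1 stood at 101.1 and 90.3 TPM, the reverse order of every other gene here. Tpm3 stood at 80.4 and 89.2 TPM. Tmod1, the gene of the tropomodulin first known from red cells, was at 27.9 and 31.96 TPM. The broadly expressed Tmod3 was at 9.03 and 10.4 TPM, on either side of the 10 TPM line. Tmod1 was 3.09 and 3.07 times as high as Tmod3.

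The blood group genes as a set were the highest by median, at 87.6 and 102 TPM over 9 genes. Kel, the gene of the Kell glycoprotein, an endothelin-cleaving enzyme, stood at 247 and 296 TPM. Its partner Xk, which encodes a membrane protein linked to Kell by a disulfide bond, was at 15.3 and 18.4 TPM, so that Kel was 16.1 times as high in each library. Rhd, the single mouse gene for the Rh protein, stood at 189 and 247 TPM. Rhag, the Rh-associated glycoprotein that the Rh protein needs to reach the surface, stood at 127 and 157 TPM. Rhag was thus 0.669 and 0.635 of Rhd. Ermap, a butyrophilin-like surface protein that carries the Scianna antigens, was at 178 and 198 TPM.

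The other surface antigens lay below Kel, Rhd, Ermap and Rhag, and of them only Bcam lay below Xk. Cd47, which encodes the signal that restrains phagocytosis by macrophages, stood at 87.6 and 102 TPM. Ackr1, the chemokine-binding Duffy protein, was at 43.7 and 51.1 TPM, and Icam4, an adhesion molecule that carries the LW antigens, was at 42.7 and 50.01 TPM. Bcam, the laminin-binding Lutheran protein, had the lowest level of the 32 genes, 5.44 and 5.68 TPM (5.56 ± 0.170, SD, n = 2). In both libraries Bcam lay below the next gene in order, Tmod3.

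Of the channels and transporters, Kcnn4, which encodes the calcium-activated potassium channel known as the Gardos channel, was at 65.8 and 71.8 TPM. Piezo1, the gene of the mechanosensitive channel that lets calcium in when the membrane is stretched, was at 47.3 and 53.5 TPM. The water channel gene Aqp1 was at 44.6 and 52.6 TPM. The urea transporter gene Slc14a1 was at 17.5 and 21.6 TPM, and Atp2b4, which encodes a calcium pump that clears calcium from the cell, was at 13.8 and 17.3 TPM. Among the raft scaffolds, Stom, the gene of stomatin, was highest at 61.7 and 73.4 TPM, and the flotillin genes were lower, with Flot1 at 29.9 and 32.01 TPM and Flot2 at 14.7 and 15.7 TPM. Flot1 was 2.03 times as high as Flot2 in each library.

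**Figure D1:**
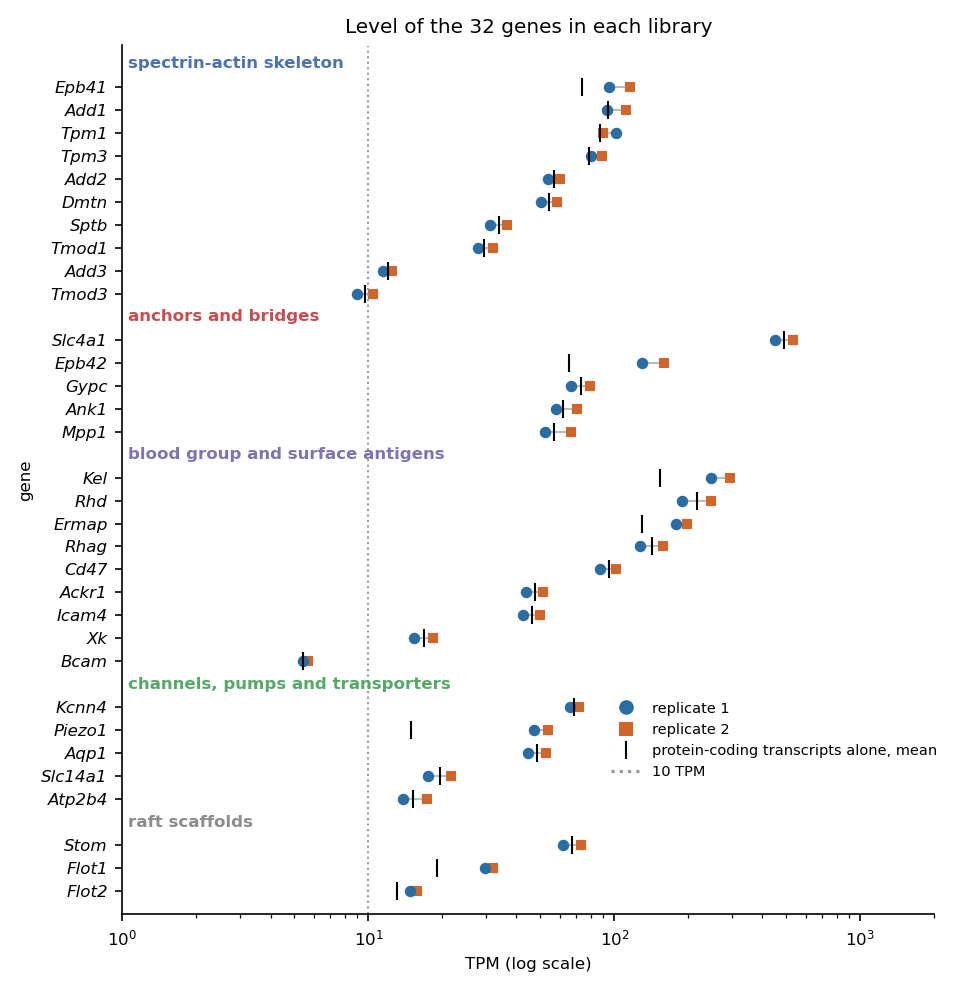
Level of each of the 32 genes in TPM on a log axis, grouped by role, with replicate 1 as circles, replicate 2 as squares and the mean over protein-coding transcripts alone as black ticks. Slc4a1 stands apart at 451 and 531 TPM, Bcam is lowest at 5.44 and 5.68 TPM, and the black tick lies well to the left of the points for Piezo1, Epb42 and Kel.

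Gene TPM sums over all annotated transcripts, and short non-coding or partial models weigh heavily because TPM divides by length. Counting protein-coding transcripts alone, Piezo1 stood at 14.0 and 15.7 TPM, 29.4% of its gene level. Epb42 stood at 59.1 and 71.9 TPM, 45.5% of its gene level, and Kel at 141 and 166 TPM, 56.6%. Flot1 kept 61.2%, Ermap 69.0% and Epb41 70.0%. For Kel the gap was carried by short models: Kel-202, a processed transcript with an effective length of 205 bases in replicate 1, held 26.3% and 26.4% of the gene's TPM from 1652 and 2830 of its counts. By coding transcripts Rhd, at 187 and 246 TPM, was above Kel in both libraries, whereas by gene TPM Kel was above Rhd. The ratios of Kel to Xk and of Epb42 to Slc4a1 given above are by gene TPM. They are lower by coding transcripts, since Xk kept 100% and Slc4a1 99.4% of the gene level. The median over the 32 genes was nearly the same by coding transcripts, 57.0 TPM.

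Between the libraries, the ratios of the 32 genes were small. By unscaled TPM, 31 of the 32 genes were higher in replicate 2, Tpm1 being the exception. On that scale most genes were higher in replicate 2. The median log2 TPM ratio was 0.23 over the 32 genes and 0.15 over the 14528 genes with at least 100 counts. After scaling the counts by trimmed mean of M-values (TMM), 26 genes had a log2 ratio of replicate 2 over replicate 1 above 0. The 95% counting interval lay above 0 for 23 of the 32 genes and below 0 for 3. The matching shares over all genes were not computed, so these counts do not set the 32 genes apart. The median log2 ratio was 0.08 over the 32 genes and 0.01 over the 14528 genes with at least 100 counts in total. No gene of the 32 passed 1.5-fold, where 4.37% of genes with at least 100 counts did so toward replicate 1 and 1.42% toward replicate 2. With shares this low, 0 of 32 does not set the genes apart. The 32 genes also had more counts than many genes of that background, at least 1000 in each library. With 1 library on each side no test was possible, and the intervals cover counting error only.

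The log2 ratio was highest for Rhd, at 0.25 (95% counting interval 0.23 to 0.27), from 30216 and 57235 counts. Mpp1 followed at 0.22, Atp2b4 at 0.22 and Ank1 at 0.19. For Slc4a1, the gene with the most counts (240171 and 410600), it was 0.10. The 3 genes whose interval lay below 0 were Tpm1 at -0.27 (interval -0.29 to -0.24), Bcam at -0.11 and Flot1 at -0.10. By role, the median was 0.16 for the anchors, 0.10 for the channels and transporters, 0.08 for the blood group genes, 0.05 for the skeleton and -0.05 for the raft scaffolds.

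**Figure D2:**
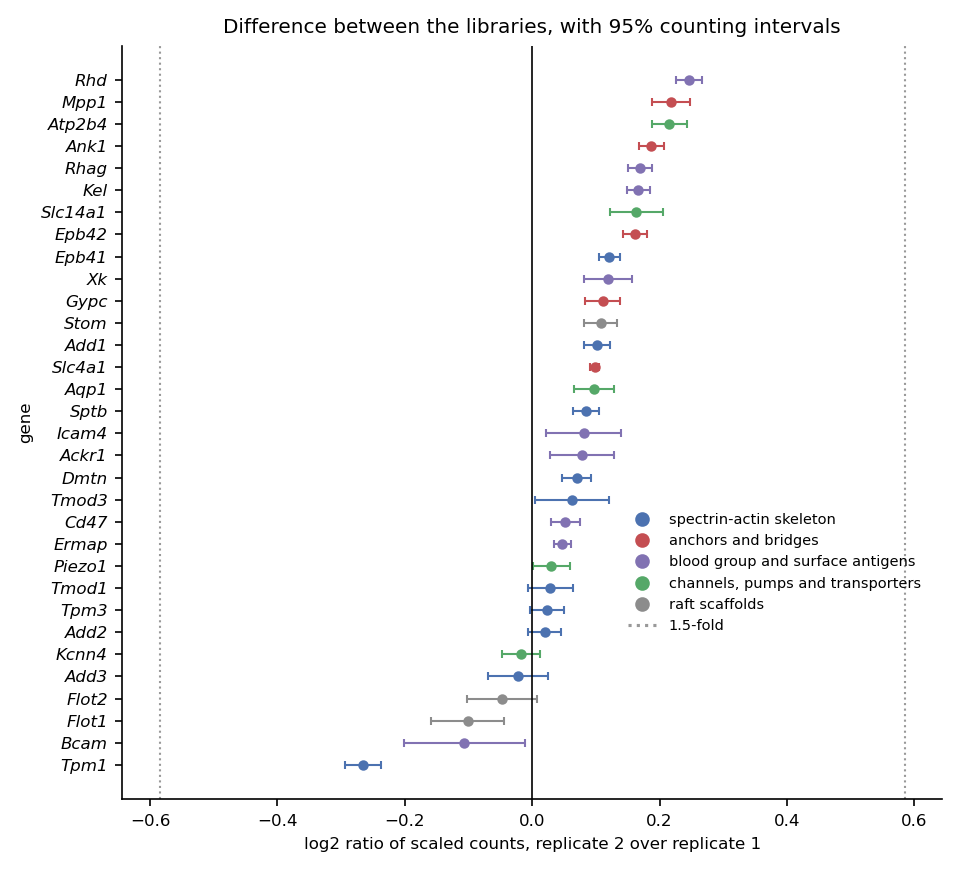
Log2 ratio of TMM-scaled counts, replicate 2 over replicate 1, for each gene, with the 95% counting interval as bars, colours for the role and dotted lines at 1.5-fold. All 32 points lie inside the dotted lines, from Tpm1 at -0.27 to Rhd at 0.25.

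Replicate 1 also held RNA of striated muscle genes that was lower in replicate 2. All 11 striated muscle markers were higher in replicate 1 by 1.5-fold or more, with a median log2 ratio of -5.26, and their TPM summed to 133 in replicate 1 and 17.2 in replicate 2. None was at 0 in either library. The highest were Mylpf, at 41.4 and 11.7 TPM, Actc1, at 30.5 and 1.48 TPM, and Acta1, at 17.3 and 1.63 TPM, and the lowest was Ttn, at 0.29 and 0.01 TPM. Tpm2, a tropomyosin of muscle that was not among the 32 genes, went the same way, from 20.1 to 9.10 TPM, with a log2 ratio of -1.49. The transcript Tpm1-205 went from 6.49 to 0.62 TPM. Tpm2, Tpm1-205 and the collagen genes named next were singled out after their values were seen. Of 8 stellate and mesothelial markers, 4 were higher in replicate 1 by 1.5-fold or more, and of 6 epithelial markers, 3 were. Among the stellate and mesothelial markers, Col1a1 had a log2 ratio of -1.36, Col1a2 of -1.33 and Col3a1 of -1.07. The muscle markers themselves ranged from -6.84 for Myh8 to -1.93 for Mylpf. The endothelial, megakaryocyte, macrophage, red cell and hepatocyte lists had no gene past 1.5-fold. The part of muscle RNA in the Tpm1 and Tpm2 ratios was not tested.

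For most families the red cell gene was the main one expressed. Over the 20 families with at least 1 listed paralogue outside the 32 genes, the members held a median of 80.9% of the family's summed TPM in replicate 1 and 82.5% in replicate 2, and over 90% in both libraries in 7 families. The members held over 50% in both libraries in 18 families and under 50% in 2. Slc4a1 held 98.0% and 97.7% of the anion exchangers, with Slc4a2 next at 8.38 and 11.6 TPM. Kcnn4 held 99.5% and 99.7% of its family, Piezo1 98.5% and 99.3%, and Slc14a1 99.8% in each library. Rhd and Rhag together left 4.96 and 5.48 TPM for Rhbg, the highest paralogue.

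In the skeleton the paralogues of other tissues were present beside the red cell gene. Ank1 held 89.5% and 90.9% of the ankyrins by gene TPM, its short transcripts included, with Ank2 at 4.07 and 3.65 TPM. Epb41 held 82.0% and 84.7%, with Epb41l2 at 8.77 and 8.23 TPM. Sptb held 75.5% and 78.3% of the beta spectrins, and Sptbn1, the beta spectrin of most other cells, made up nearly all the rest at 9.97 and 9.95 TPM. Dmtn held 80.5% and 82.8% of its group beside Svil, the supervillin gene, at 11.8 and 11.7 TPM. Tpm4, at 51.8 and 51.9 TPM, was the highest tropomyosin outside the 32 genes. Atp2b4 held 73.2% and 75.1%, with Atp2b1 at 4.54 and 5.10 TPM.

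By TPM, a paralogue was higher in 2 families. Stom, with 46.5% and 44.5% of its family, lay below Stoml2, a mitochondrial relative, at 68.9 and 89.2 TPM. Bcam, with 27.9% and 28.0%, lay below Alcam at 8.34 and 9.11 TPM. Mcam, at 5.74 and 5.50 TPM, was above Bcam in replicate 1 and below it in replicate 2, so the values of these genes overlapped. In the families that follow, the red cell gene was the highest. Epb42 held 75.6% and 76.7% of its family beside Tgm2, an active transglutaminase, at 35.8 and 42.0 TPM, and by coding transcripts alone its mean share was 59.3%. Aqp1 held 60.1% and 62.0% beside Aqp3 at 13.3 TPM in each library. Icam4 held 70.7% and 70.1% beside Icam2 at 11.0 and 14.1 TPM. Mpp1 held 58.9% and 64.2% beside Mpp6 at 22.2 and 20.9 TPM, Kel held 94.1% and 95.1% beside Ece2 at 8.73 and 10.5 TPM, and Xk held 81.2% and 82.2% beside Xkr8 at 1.47 and 1.83 TPM.

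**Figure D3:**
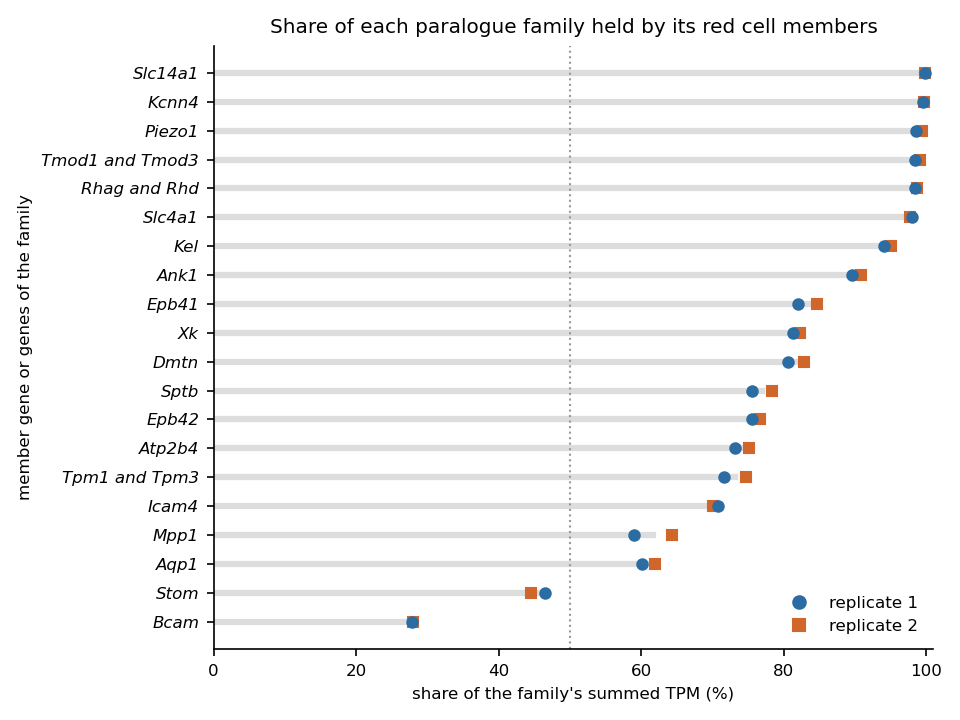
Share of each paralogue family's summed TPM held by its member gene or genes, in percent, with replicate 1 as circles, replicate 2 as squares, a grey bar to the mean and a dotted line at 50%. Stom and Bcam are the families left of the dotted line in both libraries, and Slc14a1, Kcnn4 and Piezo1 are at the top.

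Another 22 genes of the red cell surface and skeleton, outside the 32, were also measured. Of these, 18 were at 10 TPM or more in both libraries, and none passed 1.5-fold between the libraries. Their median was 36.0 and 44.9 TPM, and the median log2 ratio of the 21 with at least 100 counts was 0.16. The highest were Cd24a, at 830 and 1024 TPM, Actb, at 795 and 947 TPM, and Bsg, at 489 and 568 TPM. The lowest was Sema7a, the gene of the John Milton Hagen antigen, at 0.10 and 0.07 TPM from 38 counts in each library.

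The transcripts of a gene share most of their sequence, so their levels are estimates. For 8 of the 32 genes the table held 1 transcript, and the highest transcript held over 90% of the gene's TPM in both libraries for 15 genes and under 50% in both for 7. Sptb-202 held 88.7% and 90.2% of Sptb, the rest being mostly the longer Sptb-201. Slc4a1-201 held 99.2% and 99.5%. For Epb41 the leading transcripts were Epb41-216 with 30.6% and 35.8%, the non-coding model Epb41-215 with 27.5% and 26.5%, and Epb41-212 with 23.3% and 22.4%. Epb42 was split among Epb42-202, Epb42-201 and the non-coding Epb42-206, which held 21.7% to 23.5% each. Add3 was split evenly, with 32.1% to 35.5% on each of its 3 transcripts. Dmtn-201 held 54.4% and 55.3% beside Dmtn-203, Atp2b4-206 held 55.1% and 54.9% beside Atp2b4-207, and Add1-213 held 45.1% and 43.6% beside Add1-204. Tpm1-212 held 45.4% and 51.2%. Spliced reads of the authors' older analysis on mm9 gave a second view, with counts in 2 replicates, R1 and R2, that no source here ties to libraries 1 and 2. Of the 53 annotated exons of these genes with at least 50 reads in each replicate, 34 met the rule for naming, and in 25 of these, from 13 genes, the reads on both sides of the exon agreed within 3-fold. The inclusion of an exon is the mean of the reads joining it on either side, as a percentage of that mean plus the reads that skip it. The first junction of the non-coding Epb42-206 was crossed by 0 reads in R1 and in R2. The other annotated junction into the same exon had 2362 and 4523 reads, so the share estimated for Epb42-206 was not borne out there.

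Epb41 held the most named exons. Its exon of 63 nucleotides, which is known to complete the spectrin-actin binding domain and to be spliced in as red cell precursors mature, was joined by 1250 and 1109 reads and skipped by 368 in R1, and joined by 1863 and 1665 and skipped by 630 in R2. Inclusion was 76.2% (95% interval 74.0 to 78.3) in R1 and 73.7% (71.9 to 75.4) in R2. The deposited transcript estimates gave 59.0% and 63.2% of the TPM of transcripts spanning the exon to those that hold it. The exon of 42 nucleotides just upstream was joined by 1 read on each side in R1 and by none in R2, against 1109 and 1665 that skipped it, and a count of 0 in R2 allows an inclusion of up to 0.180%, taken as 3 counts of the total. In the transcript estimates, however, transcripts with that exon held 32.6% and 38.2% of the TPM. The neighbouring exon of 57 nucleotides was included at 4.64% and 4.23%, and an exon of 450 nucleotides at 3.88% and 3.36%. A coding exon of 102 nucleotides was included at 98.9% and 98.2%. Exons of 81 and 75 nucleotides, which overlap, were joined by 0 reads and skipped by 1004 in R1 and 1698 in R2. This allows an inclusion of up to 0.299% and 0.177%.

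The start of Epb41 transcripts is also alternative. In red cell precursors the acceptor of the second exon is known to shift so that 17 bases with the first start codon are left out, and translation begins further downstream. The bases between the acceptors are shown in capitals, followed by the next 12 bases, chr4:132007422-132007438 on the minus strand for the capitals.
Epb41, acceptor region: GAACATCATGACAACAGagaagagtttag
The stretch in capitals holds an ATG. The acceptor that leaves out these bases took 775 of 816 reads in R1, 94.98% (95% interval 93.2 to 96.4), and 1327 of 1397 in R2, 94.99% (93.7 to 96.1). Of those reads, 769 and 1315 came from the most used first exon. The acceptor that keeps the ATG was joined to that same first exon by 2 reads in R1 and 4 in R2, and its other reads came mainly from 3 donor sites nearer to it, with 10 to 15 reads each in R1 and 15 to 24 in R2. The most used first exon and the acceptor without the ATG were thus paired in nearly all reads.

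In Ank1 the spliced reads and the transcript estimates differed widely at several sites. By the estimates, Ank1-201, a short transcript with an effective length of 813 bases, held 31.96% and 32.3% of the gene's TPM, and the 3 short transcripts with its first intron held 39.5% and 36.1%. The short form of ankyrin is known from muscle, where it sits in the sarcoplasmic reticulum. The junction from the first exon of the short transcripts was crossed by 9 reads in R1 and none in R2, while the long transcripts' junction into the same exon was crossed by 1308 and 2076. This is 0.683% in R1, and in R2 a count of 0 in 2076 reads allows a share of up to 0.145%. The long transcript Ank1-207 held 31.98% and 30.1% of the TPM, with a posterior SD of 1979 on 18377 counts in replicate 1.

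The first exons of the long transcripts gave the same contrast. Of the reads joining a first exon to the shared second exon of Ank1, 170 of 171 in R1 and 349 of 352 in R2 came from the exon that ends at position 23035245 on chromosome 8 of GRCm38. The exon that ends at 23058670, nearer to the second exon, gave 1 and 3 reads, and the other annotated first exons, such as the one that ends at 22975261, gave none, which allows up to 1.75% in R1 and 0.852% in R2. The estimates placed only 30.3% and 34.9% of the TPM of these transcripts on the first exon with 99.4% and 99.1% of the reads, and 67.8% and 63.7% on the exon with 1 and 3 reads. The exon of 24 nucleotides shown above was included at 0.639% and 1.26% by spliced reads, while transcripts that hold it had 69.2% and 64.5% of the TPM of those that span it. For the first exons and the small exon of Ank1, the transcript levels in the deposited table therefore did not match the reads across the junctions.

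**Figure D4:**
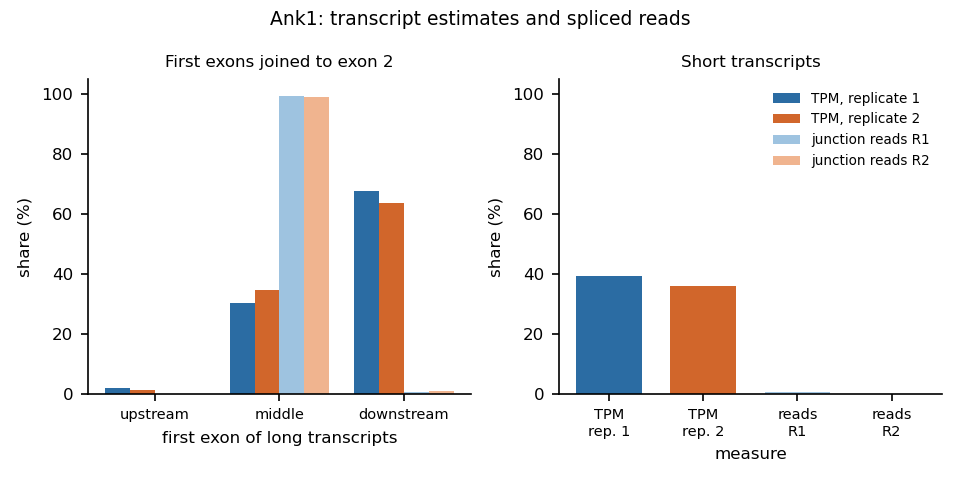
Ank1 first exons. The left panel gives, for the first exons of long transcripts in their order along the gene, the share of TPM (dark bars) and of junction reads (pale bars), in percent, and the right panel the share of the gene's TPM held by the short transcripts beside their share of reads into the same exon. In the left panel 99.4% and 99.1% of reads are on the middle exon, where the TPM share is 30.3% and 34.9%.

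For the Cd47 exon of 63 nucleotides the transcript estimates lay closer to the reads. More spliced reads skipped it (1004 in R1 and 1762 in R2) than joined it (535 and 477 in R1, 776 and 737 in R2). Its inclusion was 33.5% (95% interval 31.1 to 36.0) in R1 and 30.04% (28.2 to 31.9) in R2. Of the 2 Cd47 transcripts in the deposited table, Cd47-201 holds the exon, with 36.9% and 36.2% of the TPM. For Dmtn, the exon of 75 nucleotides was included at 81.9% and 84.2%. An Add3 coding exon of 96 nucleotides was included at 60.7% and 59.9%, and transcripts that hold it had 64.5% and 66.6% of the TPM. An Add1 exon of 37 nucleotides, partly coding, was included at 71.2% and 74.2%, against 78.3% and 80.0% of the TPM. An Add1 coding exon of 87 nucleotides was included at 10.6% and 9.38%, against 3.55% and 2.78% of the TPM. In 2 non-coding exons of Add1 reads and estimates also lay apart. The exon of 50 nucleotides was included at 7.75% and 7.35%. Add1-213, the 1 transcript that holds it, had 50.9% and 49.7% of the TPM of those that span it. The exon of 279 nucleotides was included at 23.8% and 22.5%, against 6.61% and 8.74% of the TPM.

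Further partly included exons were found in Ermap (146 nucleotides, 22.4% and 20.8%), Flot1 (91 nucleotides, 90.7% and 93.3%), Flot2 (91 nucleotides, 8.33% and 7.45%), Slc14a1 (205 nucleotides, 13.2% and 9.85%) and Piezo1 (72 nucleotides, 92.5% and 92.0%). The intervals of R1 and R2 overlapped for each of these 5. Transcripts that hold the exon had 14.7% and 13.5% of the TPM for Ermap, 89.7% and 93.3% for Flot1, and 21.6% and 22.1% for Flot2. For Slc14a1 they had 9.02% and 8.13%, and for Piezo1 99.9% in each library. The widest gap between R1 and R2 was 15.3 percentage points, for a Tpm1 exon of 79 nucleotides at 97.5% (93.6 to 99.3) and 82.1% (72.3 to 89.6). A Tpm3 exon of 79 nucleotides was at 88.4% and 80.0%. Both of these exons are joined to an end exon that a minority of transcripts use, so their shares describe reads into that end exon. A Tpm1 exon of 76 nucleotides was at 95.3% and 93.2%, counted against 29 and 40 reads that skip it. Of all reads into the next exon it gave 38.5% and 28.3%, and another exon of the same length gave 59.9% and 70.0%. Transcripts that hold the first of these had 36.0% and 28.8% of the TPM.

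**Figure D5:**
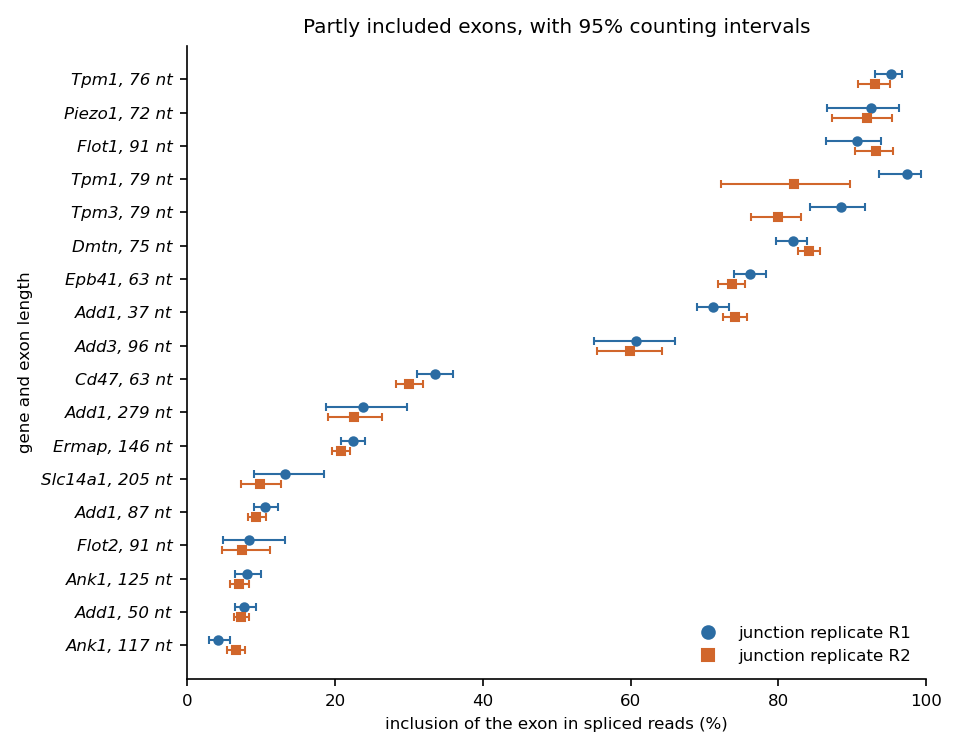
Inclusion of each partly included exon in percent, with junction replicate R1 as circles, R2 as squares and 95% counting intervals as bars; labels give the gene and the exon length in nucleotides. The Epb41 exon lies at 76.2% and 73.7%, Cd47 at 33.5% and 30.04%, and the Tpm1 exon of 79 nucleotides has the widest gap between R1 and R2.

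The tropomyosins of red cells are known to be the short forms, made from a first exon inside the gene. Of the reads into the exon that short and long forms of Tpm3 share, 1051 of 1058 in R1 and 1568 of 1574 in R2 came from the inner first exon, 99.3% and 99.6%. For Tpm1 it was 1478 of 1796 and 2086 of 2480, 82.3% and 84.1%. The other Tpm1 reads came from exons of the long forms, with 15.3% and 13.5% from 1 of them. Tpm3 reads were thus almost all of the short form, and Tpm1 reads held a share of the long forms. In Slc4a1, 12411 of 12454 and 17797 of 17833 reads into the second exon came from the first exon of the main transcript, 99.7% and 99.8%.

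The promoters of the 5 highest genes with a single entry in the RefSeq promoter table (GRCm38.p6) are shown as the 100 bases before the start. GATA-type motifs, AGATAA and TGATAA as well as AGATAG and TGATAG on either strand, and CACC-type motifs, CCNCNCCC on either strand, are searched because GATA1 and KLF1 are known regulators of red cell genes. Matches are in capitals.
Kel, chr6:41704326-41704425, minus strand: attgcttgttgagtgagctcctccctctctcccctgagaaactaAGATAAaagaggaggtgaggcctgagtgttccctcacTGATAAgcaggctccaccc
Rhd, chr4:134864436-134864535, plus strand: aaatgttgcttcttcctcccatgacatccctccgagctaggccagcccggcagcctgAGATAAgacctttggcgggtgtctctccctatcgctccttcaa
Ermap, chr4:119189996-119190095, minus strand: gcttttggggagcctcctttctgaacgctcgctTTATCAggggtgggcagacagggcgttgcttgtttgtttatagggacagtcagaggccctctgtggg
Epb42, chr2:121036878-121036977, minus strand: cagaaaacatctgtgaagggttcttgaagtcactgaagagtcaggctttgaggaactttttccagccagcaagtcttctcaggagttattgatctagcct
Rhag, chr17:40811049-40811148, plus strand: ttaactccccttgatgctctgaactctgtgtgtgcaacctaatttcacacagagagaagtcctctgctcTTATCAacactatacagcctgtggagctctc
Kel held 2 GATA-type matches in these bases, and Rhd, Ermap and Rhag held 1 each. None of the 5 stretches held a CACC-type match.

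In the whole promoter windows, 250 bases before to 50 after the start, 25 of the 32 genes had an entry, with 31 promoters. Dmtn, Gypc, Tmod3, Flot1, Ank1, Slc4a1 and Slc14a1 were not in the table. A GATA-type motif was found in 15 of the 31 promoters, from 14 genes, and in 29.8% of all 32851 promoters. The motif CCNCNCCC was found in 19 of the 31, where 49.5% of all promoters held it, and the longer CCACACCC, which is a case of CCNCNCCC, in 1 of the 31, where 3.56% did. Epb42 had its GATA-type match further up, 226 bases before the start. A match is a run of letters and was not tested for binding.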

How the data were processed

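The deposited mm10 gene and transcript tables hold expected counts, TPM and FPKM (with posterior mean TPM and, as a score, the posterior standard deviation of each count), per the file headers. The annotation is GENCODE M4 by its identifiers, and the aligner is not given in the sources used here, nor are its settings. The authors' older mm9 files hold RPKM per gene and junction read counts, per the file headers. Symbols and positions came from GENCODE M21 (GRCm38), which named 42462 of 43346 mouse genes. Expected counts were rounded and scaled by TMM (edgeR 4.0.16, R 4.3.3), with DESeq2 1.42.0 size factors as an alternative. Ratios between libraries carry exact conditional binomial intervals at 95%, and exon inclusion Clopper-Pearson intervals at 95%, both for counting error only (scipy 1.17.1). A share with a count of 0 is given an upper limit of 3 counts over the total, which is lower than the 2-sided Clopper-Pearson bound. Transcripts were read as holding or skipping an exon from the annotation whose model had the deposited length, which 192 of 195 had. No transcript share is given for the Dmtn exon, since the main transcripts of Dmtn had no such model. The scaling and the inclusion share were tested on simulated data. No test between conditions was run, since there is 1 group.

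The genes and lists were chosen with earlier results of these data known. Named were all 32 genes, the highest paralogue of each family and any above its member, the highest 3 and the lowest gene of the other red cell list and of the muscle list, transcripts with 20% or more, and exons with at least 50 reads in each replicate and inclusion between 5% and 95% in either (Epb41 and Ank1: any skipping read). The limit of 3-fold between the reads on either side of an exon was chosen after seeing the data. No paired analysis was possible because there is only 1 group.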

Additional observations from a re-analysis of the deposited data

How the results depend on the processing

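On other scales the median level of the 32 genes was 69.6 in FPKM and 19.6 in RPKM of the mm9 table, and 5.76 as the mean of log2(TPM + 0.1); leaving out either library gave 53.1 to 63.3 TPM. Leaving out either library gave 30 to 31 genes at 10 TPM or more, 89.0% to 90.7% for the median share of the highest transcript, 23 to 25 named exons, and 80.9% to 82.5% for the median family share. By posterior mean TPM the median share of the highest transcript was 88.0% in place of 89.95%. The median family share was 86.4% by mm9 RPKM and 85.7% by coding transcripts, an alternative chosen after seeing the data, in place of 81.7%. The cause was not tested. By mm9 RPKM the members held a mean share over 50% in 19 families, in place of 18 by TPM. Without the limit on the reads either side of an exon, also set after seeing the data, 34 exons were named in place of 25. The count of genes past 1.5-fold was 0 under each of the 7 alternatives in fold, scaling or filter, but 29 genes had a positive log2 ratio when scaled by library totals and 31 by unscaled TPM, in place of 26. Choosing the higher or lower of the reads either side of an exon moved an inclusion by up to 11.2 percentage points. The depth of the junction list limits exons of low genes, and 2 libraries of 1 group allow no test.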
